A study of Mus musculus with 16 samples.

Results

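The genes described here are 45 genes of the vesicle traffic between the endoplasmic reticulum (ER) and the Golgi. They were taken by symbol from a fixed list, which was made with earlier results of these data known. All 45 were found by Ensembl identifier among the 49315 rows of the count table, and all 45 passed the filter on low counts that left 15993 genes for testing. The libraries came from MTECs, primary mouse tracheal epithelial cells differentiated at an air-liquid interface, and the study asked how sex and the cargo receptor LMAN1 shape the response to house dust mite (HDM) extract. There were 8 groups with 2 biological replicates each: female (F) and male (M) cultures, labelled WT or LMAN1 KO, left naive or given 20 µg/ml HDM extract overnight. All mice were on the C57BL/6J background, KO and WT animals were littermates from heterozygous breeding, and the age of the animals is not given in the sources used here. The labels call the replicates biological but do not say which animals each culture came from, so p-values measure the spread between these libraries, which may be technical.

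Proteins that leave the ER are packed into vesicles under the COPII coat. The small GTPase SAR1, loaded by PREB, recruits the inner coat of SEC23 and SEC24, SEC24 selects cargo, and the outer cage of SEC13 and SEC31 bends the membrane at exit sites organised by SEC16. The COPI coat, a coatomer recruited by the GTPase ARF1, carries escaped ER proteins and receptors back, and KDEL receptors return soluble ER chaperones. LMAN1, with its partner MCFD2, is a lectin that rides this cycle as a cargo receptor. Airway secretory cells release mucins and other proteins through this pathway.

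Total counts ranged from 21860698 to 43442188 per library, and the 45 genes together took 0.599% to 0.684% of them. The targeted gene went against its label in part of the series. Lman1 lay between 101 and 144 CPM (counts scaled to library size with TMM factors) in the WT libraries. It was 12.8 and 12.8 CPM in naive F KO-labelled and 14.2 CPM in the first naive M KO-labelled library, but 63.4 CPM in the second, 66.6 and 78.1 CPM in F KO-labelled HDM, and 65.0 and 66.0 CPM in M KO-labelled HDM. These are therefore called libraries labelled KO or KO-labelled throughout. Whether the reads lie inside the deleted part is unknown, because the counts are per gene. Mcfd2 lay between 58.0 and 90.1 CPM. Epithelial markers summed to 5939 to 9379 CPM in every library, while ciliated markers summed to only 60 to 155.5 CPM and the club cell marker Scgb1a1 stayed at or below 3.75 CPM. The HDM-treated female libraries stood apart: 8 secretory markers summed to 4703 and 3838 CPM in F WT HDM and 8246 and 7542 CPM in F KO-labelled HDM, against 15440 to 27160 CPM elsewhere, most of it Cyp2f2. Basal markers summed to 4158 and 2140 CPM in F WT HDM, against 6734 to 12910 CPM in the other libraries. Mitochondrial transcripts took 2.04% and 2.5% of counts in F WT HDM and 1.39% and 1.36% in F KO-labelled HDM, against 0.517% to 0.675% in naive female and 0.668% to 1.52% in male libraries, so the F KO-labelled HDM libraries lay within the male range. Fibroblast markers summed to 590 CPM in the second F WT naive and 623 CPM in the second F WT HDM library and to 3.25 to 172 CPM elsewhere. Immune markers summed to 95.2 to 285 CPM with Cd3e at most 0.0337 CPM, and endothelial markers to at most 1.85 CPM with Cdh5 at most 0.0899 CPM. The part of these shifts in the results was not tested, and in bulk cultures fewer cells of a type and less RNA per cell cannot be told apart.

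Promoter sequence is shown for 5 of the 24 members whose transcripts moved under HDM in F WT MTECs. This lets their start regions be read side by side. RefSeq windows from 250 bases before to 50 bases after a gene's start on GRCm38.p6 were given for 41 of the 45 members in 48 windows, and not for Arcn1, Kdelr2, Tmed2 and Tmed7. The motifs searched on both strands were the unfolded protein response element TGACGTGG, its core ACGTGG, which lies inside it, the ER stress elements ERSE and ERSE-II, the cyclic AMP element TGACGTCA and the box CCAAT, which lies inside the longer stress element. Each sequence is the 250 bases before the start, 5′ to 3′ on the gene's own strand, and capitals mark TGACGTGG, ACGTGG or CCAAT or their reverse complements.
Sec24d promoter, GRCm38.p6 chr3:123267246-123267495, plus strand: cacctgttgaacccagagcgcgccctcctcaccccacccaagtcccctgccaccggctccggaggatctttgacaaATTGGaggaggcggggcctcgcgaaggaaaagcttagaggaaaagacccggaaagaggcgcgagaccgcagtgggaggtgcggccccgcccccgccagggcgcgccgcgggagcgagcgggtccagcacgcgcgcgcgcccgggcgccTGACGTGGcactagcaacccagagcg
Kdelr3 promoter, GRCm38.p6 chr15:79516158-79516407, plus strand: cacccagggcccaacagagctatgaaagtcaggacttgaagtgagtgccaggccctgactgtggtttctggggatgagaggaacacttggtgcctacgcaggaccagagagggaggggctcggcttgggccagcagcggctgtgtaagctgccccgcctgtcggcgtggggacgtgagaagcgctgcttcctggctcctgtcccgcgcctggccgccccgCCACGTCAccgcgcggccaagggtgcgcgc
Gbf1 promoter, GRCm38.p6 chr19:46152308-46152557, plus strand: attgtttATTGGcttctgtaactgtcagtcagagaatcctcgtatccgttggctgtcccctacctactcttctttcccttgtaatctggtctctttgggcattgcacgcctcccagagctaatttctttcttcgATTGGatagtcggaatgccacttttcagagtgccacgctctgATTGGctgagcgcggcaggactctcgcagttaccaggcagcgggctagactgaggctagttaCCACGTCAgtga
Sec23b promoter, GRCm38.p6 chr2:144555979-144556228, plus strand: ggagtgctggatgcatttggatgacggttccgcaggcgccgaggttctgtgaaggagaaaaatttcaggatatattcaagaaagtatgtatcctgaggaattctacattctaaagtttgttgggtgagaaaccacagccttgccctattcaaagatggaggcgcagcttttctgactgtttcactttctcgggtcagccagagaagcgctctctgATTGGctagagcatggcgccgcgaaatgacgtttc
Arfgap3 promoter, GRCm38.p6 chr15:83350248-83350497, minus strand: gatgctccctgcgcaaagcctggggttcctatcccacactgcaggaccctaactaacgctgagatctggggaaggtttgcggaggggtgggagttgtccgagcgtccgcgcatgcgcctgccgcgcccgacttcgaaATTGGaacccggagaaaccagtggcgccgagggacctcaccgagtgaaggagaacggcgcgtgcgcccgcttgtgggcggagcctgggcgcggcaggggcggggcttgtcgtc
Sec24d and Kdelr3 rose and Gbf1 fell under HDM in F WT MTECs, and each holds TGACGTGG or its reverse CCACGTCA within the last 30 bases before the start. No other member with a window that rose or fell there held it before the start, so these sequences do not stand for those members. Sec23b, shown at the first of its 2 annotated starts, and Arfgap3 fell most, and of the motifs in capitals their 250 bases hold only a CCAAT box, in its reverse letters. TGACGTGG stood in 10 of the 48 member windows (20.8%), against 0.676% of 32851 windows of all genes and 0.887% of 14657 windows of tested genes. These 10 windows belong to 9 members, Sec23a, Sec24d, Sec16b, Copb1, Copb2, Arf1, Gbf1, Kdelr3 and Stx5a, of which 3 rose, 1 fell and 5 were not called in F WT MTECs. The 2 windows of Arf1 overlap and hold the same site, which the window counts of TGACGTGG and of its core take in both. The core ACGTGG stood in 24 of the 48 windows (50%), against 8.31% of all windows and 10.8% of those of tested genes. By gene, it stood in 7 of 9 members that rose, 5 of 12 that fell and 10 of 20 that were not called. CCAAT stood in 43.8% of member windows and 37.4% of all windows, TGACGTCA in 1 member window, at Cope, and in 1.79% of all windows. Both long stress elements were in 0 of the 48 windows and in 0.119% and 0.0365% of all windows. The motifs were chosen with the members known, and a match is a run of letters and not a shown binding site.

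Levels of different genes were compared as CPM per kb of exon, averaged over the 16 libraries. Arf1, the GTPase that recruits coatomer, was highest at 276 CPM per kb. Rab1a, the GTPase of ER to Golgi tethering, followed at 92.6, Sar1b at 75.0, Sec23b at 69.1 and Rab1b at 68.3 CPM per kb. The ranges of these last 3 over libraries overlapped, with Sec23b from 22.1 to 106 CPM per kb. That of Rab1a, from 86.0 to 100.4 CPM per kb, overlapped those of Sar1b and Sec23b. In the other roles the highest members were Tmed9 (63.9), Kdelr1 (59.2), Tfg (48.6), Copb2 (41.0), Sec31a (27.9) and Sec22b (21.3 CPM per kb). Sec31b and Sec16b, second copies of the outer cage and scaffold genes, were close to 0 at 0.0911 and 0.0423 CPM per kb and never exceeded 0.752 CPM in a library. Of the 43 others, Sec24a was lowest at 3.14 CPM per kb.

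**Figure D1:**
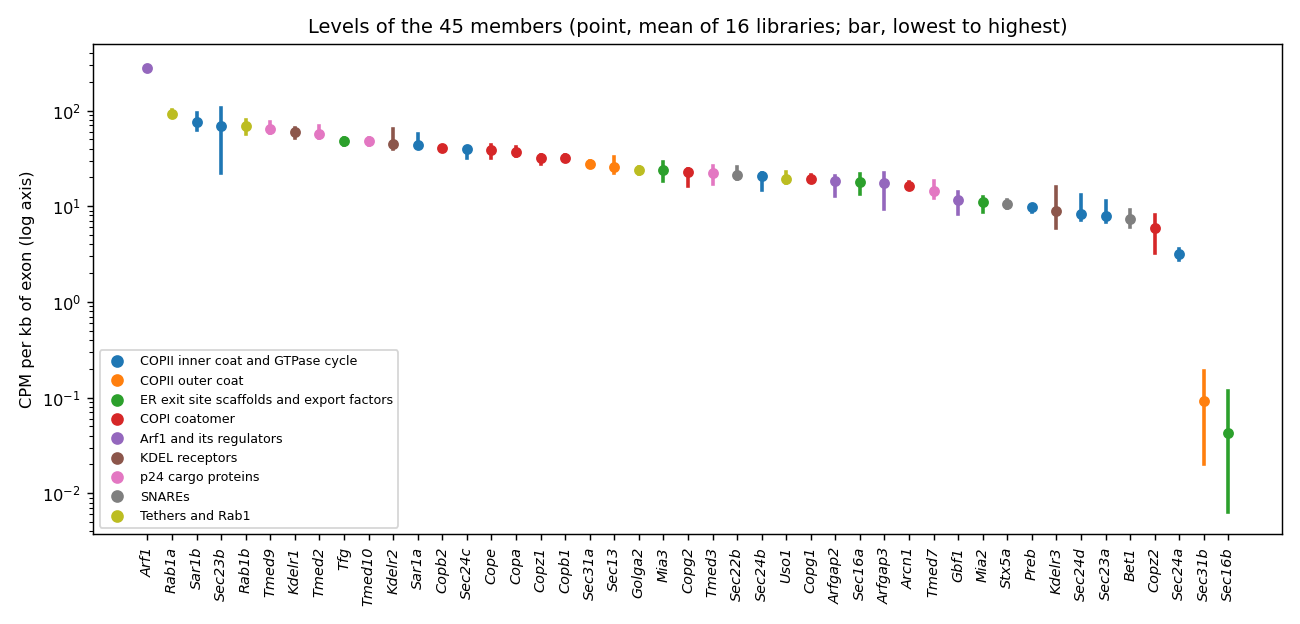
Mean level of each of the 45 genes in CPM per kb of exon on a log axis, ordered from highest to lowest, with bars from the lowest to the highest of 16 libraries and colours by role. Most bars are short, Sec23b spans 22.1 to 106 CPM per kb, and Sec31b and Sec16b lie far below the rest.

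Under HDM, single vesicle transport genes rose or fell in female MTECs, and Sec23b, which fell, had the largest change of the 45. As a group the members were called about as often as other genes and changed less in size. In F WT MTECs 24 of the 45 genes passed an adjusted p under 0.05 in edgeR's quasi-likelihood test (53.3%), 12 higher and 12 lower, where 43.1% of all tested genes passed, 20.6% higher and 22.4% lower. The median absolute log2 fold change was 0.22 over the members and 0.38 over all tested genes in F WT, and 0.09 and 0.21 in F KO-labelled MTECs. The members that rose were Sec23a, Sec24d, Sar1a, Sar1b, Sec13, Kdelr2, Kdelr3, Tmed2, Tmed7, Tmed9, Sec22b and Uso1. Those that fell were Sec23b, Sec24b, Sec24c, Sec16a, Mia2, Mia3, Copg2, Copz1, Arfgap2, Arfgap3, Gbf1 and Golga2. In F KO-labelled MTECs only 4 members were called (8.89%), Sec23b, Arfgap3, Cope and Rab1b, all lower, where 10.4% of all tested genes passed, 4.63% higher and 5.77% lower. Leaving out any 1 library left fewer calls in F WT and in F KO-labelled MTECs, among the members and among all tested genes alike. In both, the fewest members were left without the first naive or the second HDM library.

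**Figure D2:**
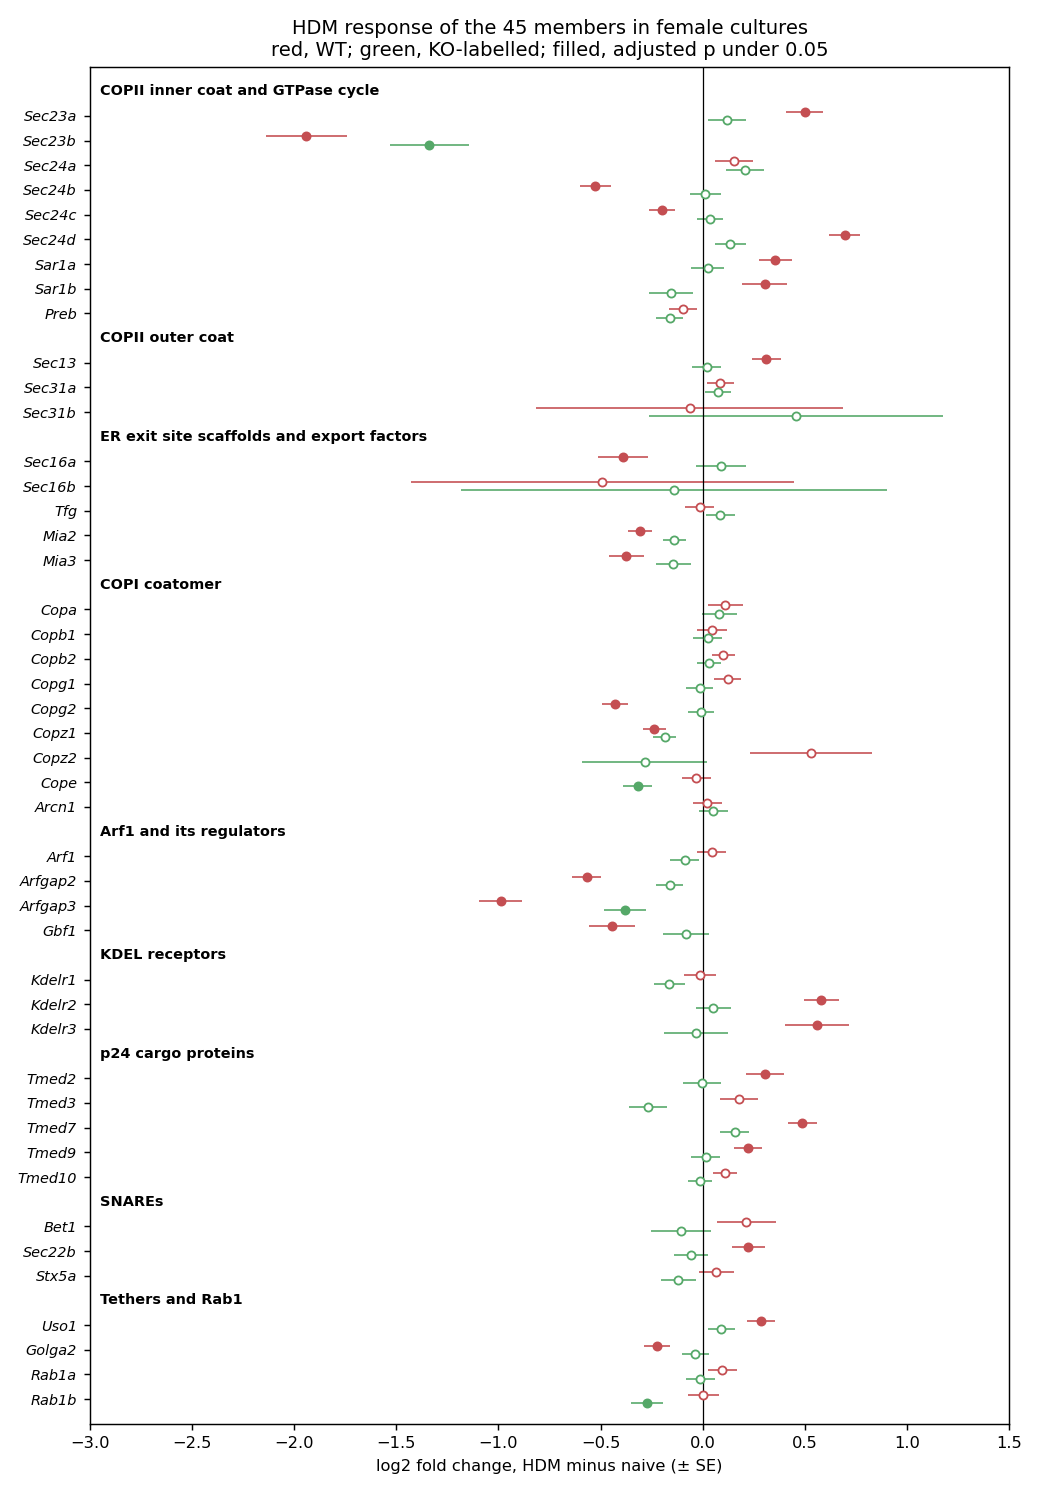
Log2 fold change of HDM against naive cultures (± SE) for each of the 45 genes by role, in female WT (red) and KO-labelled (green) MTECs, with filled points for an adjusted p under 0.05. Sec23b lies far to the left in both, at -1.94 and -1.34, and most of the COPI coatomer lies near 0.

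Within the inner coat, the paralogs moved in opposite directions. Sec23b, the GTPase-activating subunit of the inner coat (chr2:144556229-144590749, plus strand, GRCm38), was at 639 and 492 CPM in naive F WT MTECs and at 155 and 139 CPM after HDM. The fitted log2 fold change was -1.94 ± 0.20 (SE, adjusted p = 2.1e-05), a 3.84-fold lower level. F KO-labelled cultures had 558 and 451 CPM naive and 193 and 206 CPM after HDM, a log2 fold change of -1.34 ± 0.19 (adjusted p = 0.0021). The 4 HDM-treated female libraries lay below the 12 others, which ran from 333 to 670 CPM. The same 4 libraries had the lowest secretory marker sums. In 6 of the 8 groups the replicate with more Sec23b also had the higher sum. In F KO-labelled HDM and naive M WT it had the lower sum, and an order of 2 libraries can agree by chance. The part of secretory cells in the loss of Sec23b was not tested.

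Sec23a, the other SEC23 gene (chr12:58958383-59012017, minus strand), was at 35.2 and 39.4 CPM in naive F WT MTECs and rose to 50.6 and 54.9 CPM (log2 fold change 0.50 ± 0.09, adjusted p = 0.0011). Every other library lay between 32.7 and 40.6 CPM, and in F KO-labelled MTECs the change was 0.12 ± 0.09 (adjusted p = 0.46). On the scale of CPM per kb, Sec23a made up 6.10% to 12.2% of the 2 SEC23 genes in the naive and male libraries. That share was 29.8% and 34.0% in F WT HDM and 20.6% and 19.3% in F KO-labelled HDM, so the groups did not overlap, with Sec23b falling in both and Sec23a called only in F WT.

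**Figure D3:**
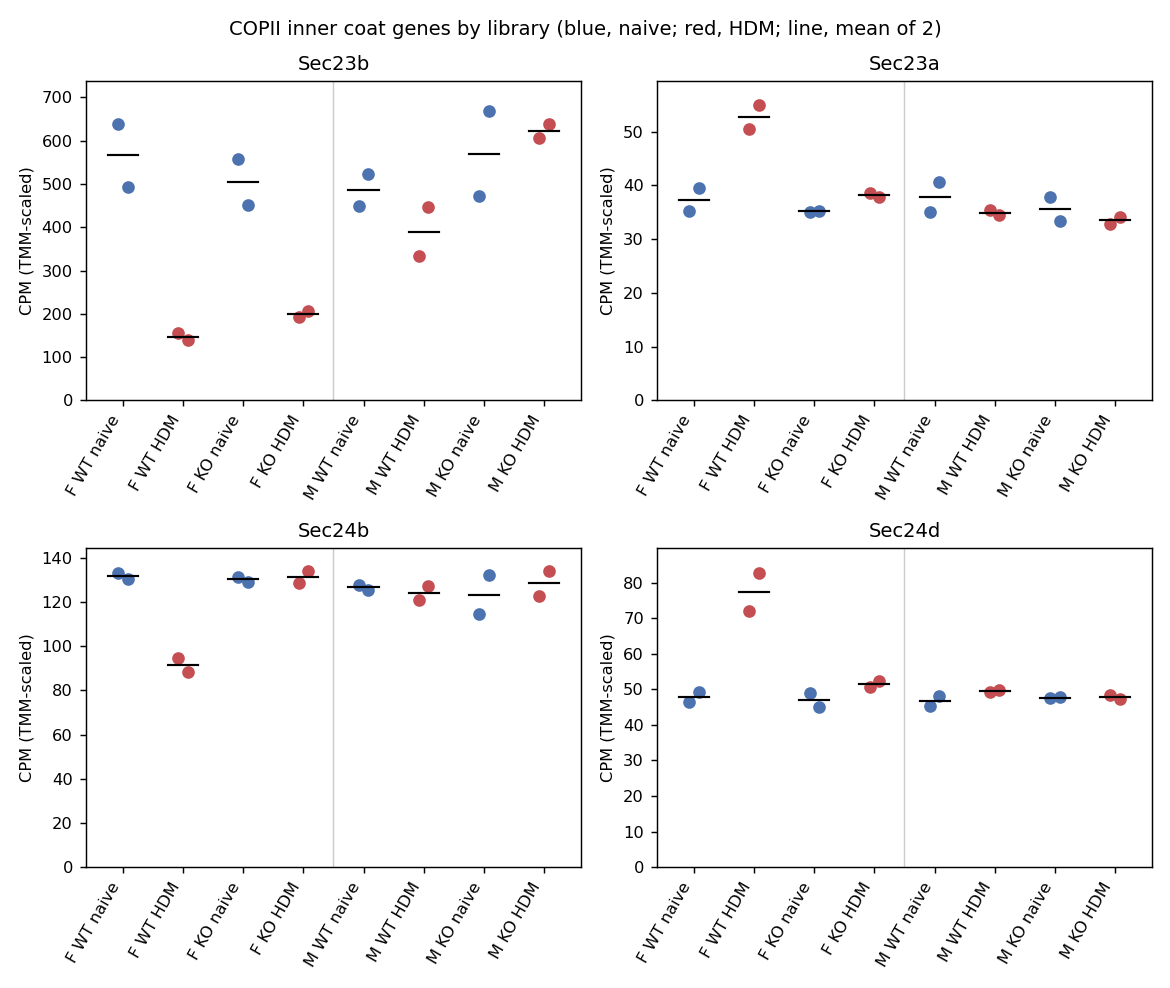
CPM of Sec23b, Sec23a, Sec24b and Sec24d in each of the 16 libraries by group, naive in blue and HDM in red, with a line at the mean of the 2 libraries. Sec23b is low in F WT HDM and F KO-labelled HDM, whereas Sec23a and Sec24d are high and Sec24b is low in F WT HDM alone.

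The 4 SEC24 genes, which encode the cargo-binding subunits, also split in F WT MTECs, where 20.6% of all tested genes rose and 22.4% fell. Sec24d was at 46.5 and 49.3 CPM in naive F WT MTECs and at 72.04 and 82.88 CPM after HDM, the largest rise among the members (log2 fold change 0.69 ± 0.07, adjusted p = 3.2e-05). Its level in the 14 other libraries ran from 45.03 to 52.45 CPM. Sec24b fell from 133 and 130 CPM to 94.6 and 88.4 CPM (-0.53 ± 0.08, adjusted p = 0.00022), below all 14 other libraries at 115 to 134 CPM. Sec24c, the most abundant SEC24 gene, went from 251 and 241 to 226 and 203 CPM (-0.20 ± 0.06, adjusted p = 0.025). Sec24a did not pass (0.15 ± 0.09, adjusted p = 0.20). Per kb, Sec24d made up 24.1% and 28.9% of Sec24c and Sec24d together in F WT HDM and 15.0% to 17.1% elsewhere. In the KO-labelled female cultures no SEC24 gene passed, where only 10.4% of all tested genes did. Log2 fold changes of the SEC24 genes ran from 0.01 for Sec24b to 0.20 for Sec24a, which had the smallest adjusted p of 0.18.

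Both SAR1 genes, the GTPases that start coat assembly, rose in F WT MTECs, where 20.6% of all tested genes rose. Sar1a went from 150 and 162 to 189 and 211 CPM (log2 fold change 0.35 ± 0.08, adjusted p = 0.0041), and Sar1b rose by 0.30 ± 0.11 (adjusted p = 0.042). Preb, their exchange factor, did not pass (-0.10 ± 0.07, adjusted p = 0.28). In the outer cage Sec13 rose by 0.31 ± 0.07 (adjusted p = 0.0038), from 80.0 and 80.9 to 94.6 and 105 CPM. Its partner Sec31a was at 212 and 213 CPM naive and 231 and 221 CPM after HDM and did not pass (adjusted p = 0.31), and Sec31b was too low to resolve, with an SE of 0.75.

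At the exit sites, 3 of 5 genes fell and 0 rose in F WT MTECs, beside 22.4% and 20.6% of all tested genes. Sec16a, the scaffold that marks exit sites, fell from 179 and 164 to 137 and 124 CPM (-0.39 ± 0.12, adjusted p = 0.023). Mia3, also known as TANGO1, and Mia2, which help load bulky cargo such as collagen, fell by 0.38 ± 0.09 and 0.31 ± 0.06 on the log2 scale (adjusted p = 0.0042 and 0.0014). Mia3 was at 107 and 105 CPM naive and 80.8 and 83.0 CPM after HDM, and its 14 other libraries lay at 88.7 CPM or more. Tfg, which organises COPII carriers, stayed at -0.02 ± 0.07. Sec16b had an SE of 0.94.

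The COPI coatomer moved little. Of its 9 genes 2 were called in F WT MTECs, both lower, beside 43.1% of all tested genes called, and the median log2 fold change was 0.04. Copa, Copb1, Copb2, Copg1, Arcn1 and Cope, which encode the large and small subunits of the complex, had log2 fold changes from -0.03 to 0.12 and did not pass. Copb2, the highest of them per kb, was at 250 and 245 CPM naive and 264 and 267 CPM after HDM. The exceptions were among subunits with a paralog. Copg2, one of 2 gamma subunits, fell from 122 and 117 to 94.1 and 83.7 CPM (-0.43 ± 0.07, adjusted p = 0.00033), whereas Copg1 was at 206 and 202 CPM naive and 221 and 223 CPM after HDM (0.12 ± 0.07, adjusted p = 0.18). The Copg2 share of both, per kb, was 47.8% and 44.7% in F WT HDM and 53.0% to 57.4% in the 14 other libraries. Copz1 fell by 0.24 ± 0.06 (adjusted p = 0.0061). Copz2 was at 13.2 and 10.5 CPM naive and 16.2 and 17.9 CPM after HDM and did not pass (0.53 ± 0.30, adjusted p = 0.17). Mest, on the opposite strand, overlaps the Copg2 locus, and the strand setting of the counting is not given. Among F KO-labelled cultures Cope, the epsilon subunit, was lower at 121 and 107 CPM against 138 and 147 CPM (-0.32 ± 0.07, adjusted p = 0.017), and lost its call when either naive or the second HDM library was left out, with adjusted p values of 0.06, 0.107 and 0.16.

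**Figure D4:**
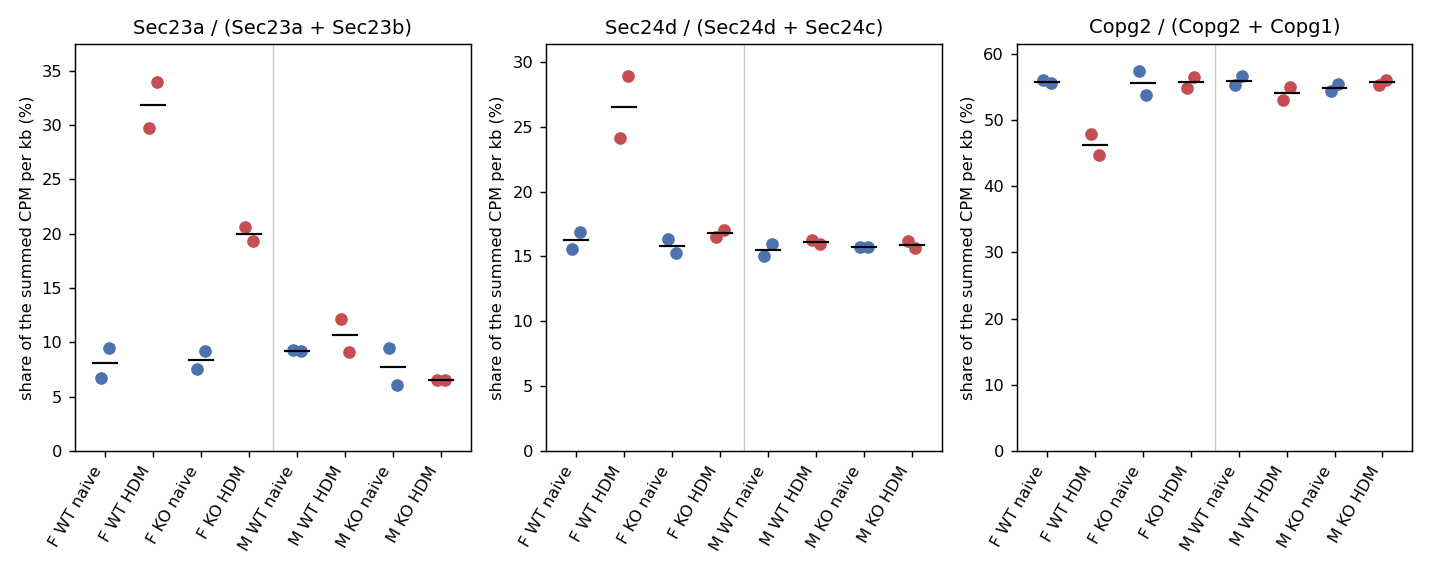
Share of the first gene in the summed CPM per kb of a paralog pair, in percent, for each library by group, naive in blue and HDM in red with a line at the mean of 2. The Sec23a share is 29.8% and 34.0% in F WT HDM and 20.6% and 19.3% in F KO-labelled HDM, and in F WT HDM the Sec24d share is the highest and the Copg2 share the lowest of all groups.

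The 3 regulators of ARF1 fell in F WT MTECs, where 22.4% of all tested genes did, while Arf1 itself did not change by the test. In F KO-labelled MTECs 1 of these 4 genes was called, Arfgap3, beside 10.4% of all tested genes. Arf1 was at 574 and 585 CPM in naive F WT MTECs and 596 and 597 CPM after HDM (0.04 ± 0.07, adjusted p = 0.66), and varied 1.11-fold over all 16 libraries. Arfgap3, a GTPase-activating protein that turns ARF1 off on COPI vesicles, fell from 78.6 and 70.6 to 39.5 and 35.6 CPM (-0.99 ± 0.10, adjusted p = 2.7e-05), a 1.98-fold lower level. The F KO-labelled level went from 77.9 and 63.1 to 55.6 and 52.7 CPM (-0.38 ± 0.10, adjusted p = 0.036), but lost its call without the first naive or either HDM library, with adjusted p values of 0.307, 0.107 and 0.216. Arfgap2, its close relative, fell from 82.6 and 75.8 to 54.1 and 52.7 CPM (-0.57 ± 0.07, adjusted p = 6.9e-05). Gbf1, the exchange factor that loads ARF1 at the cis-Golgi, fell from 137 and 124 to 101 and 90.9 CPM (-0.44 ± 0.11, adjusted p = 0.0078) and lost its call without the first naive (adjusted p = 0.066) or second HDM library (0.085).

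Of the KDEL receptor genes, which return cargo, 2 of 3 rose in F WT MTECs, where 20.6% of all tested genes rose. Kdelr2, a receptor for soluble ER chaperones, rose from 72.8 and 72.6 to 101 and 117 CPM (0.58 ± 0.09, adjusted p = 0.00025), above the 14 other libraries at 72.6 to 85.1 CPM. Kdelr3 rose from 12.3 and 14.4 to 16.9 and 22.6 CPM (0.56 ± 0.16, adjusted p = 0.013) and lost its call without the first naive (adjusted p = 0.108) or second HDM library (0.142). Kdelr1, the most abundant of the 3, was at 116 and 111 CPM naive and 109 and 117 CPM after HDM. Of the 5 p24 family genes, which encode transmembrane cargo proteins of early secretory vesicles, 3 rose and 0 fell, beside 20.6% and 22.4% of all tested genes. Tmed7 rose from 109 and 108 to 144 and 161 CPM (0.49 ± 0.07, adjusted p = 0.00023), Tmed2 by 0.30 ± 0.09 (adjusted p = 0.021) and Tmed9 from 214 and 218 to 245 and 258 CPM (0.22 ± 0.07, adjusted p = 0.025). Tmed3 and Tmed10 had values of 0.18 and 0.11 that did not pass. Among F KO-labelled cultures none of the KDEL receptor and p24 genes passed, where only 10.4% of all tested genes did. The smallest adjusted p values of these genes were those of Tmed3 (-0.27 ± 0.09, adjusted p = 0.09) and Tmed7 (0.15 ± 0.07, adjusted p = 0.19).

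Among the SNAREs, which fuse vesicles with their target, Sec22b rose from 84.8 and 81.6 to 91.3 and 103 CPM (0.22 ± 0.08, adjusted p = 0.045), while Bet1 (0.21 ± 0.14) and Stx5a (0.07 ± 0.09) did not pass. Uso1, the long tether p115, rose from 106 and 105 to 125 and 133 CPM (0.28 ± 0.07, adjusted p = 0.0053). Golga2, the Golgi matrix protein that p115 binds, fell by 0.22 ± 0.07 (adjusted p = 0.015). Rab1a was at 348 and 340 CPM naive and 354 and 381 CPM after HDM and did not pass. Rab1b was at 159 and 153 CPM naive and 151 and 161 CPM after HDM in F WT, and in F KO-labelled it fell from 161 and 159 to 135 and 130 CPM (-0.27 ± 0.08, adjusted p = 0.047), a call lost without any 1 of the 4 libraries (adjusted p from 0.127 to 0.237).

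In male MTECs HDM treatment gave 0 called members by edgeR in WT and 0 in KO-labelled cultures, where 0% of all tested genes passed. An unadjusted p under 0.05 was reached by 2 members in M WT, Cope and Mia2, and by 0 in M KO-labelled. Over all 15993 tested genes it was reached by 665 and 857. DESeq2 called 0 members in both, beside 2 and 1 of the tested genes. Sec23b was at 448 and 524 CPM in naive and 333 and 447 CPM in HDM-treated M WT MTECs (-0.32 ± 0.19, adjusted p = 0.94). In M KO-labelled it was at 471 and 670 CPM naive and 606 and 639 CPM after HDM (0.13 ± 0.19, adjusted p = 0.89).

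The HDM response itself was compared between sexes with an interaction term. In WT MTECs 13 members differed (6 with a higher value in males and 7 with a lower one), where 24.2% of all tested genes passed, 12.8% higher and 11.3% lower. With library size as the only scaling the 13 calls were 8 higher and 5 lower, beside 2347 higher and 1515 lower of 15993 tested genes. The difference was 1.62 ± 0.27 for Sec23b (adjusted p = 0.0016), 0.91 ± 0.15 for Arfgap3 (adjusted p = 0.0013) and -0.61 ± 0.11 for Sec24d (adjusted p = 0.0021). Arfgap3 was at 74.9 and 76.4 CPM in naive and 70.5 and 72.3 CPM in HDM-treated M WT MTECs, and Sec24d at 45.2 and 48.2 CPM naive and 49.4 and 49.8 CPM after HDM. In KO-labelled MTECs 1 member differed, Sec23b, by 1.47 ± 0.27 (adjusted p = 0.016), where 3.56% of all tested genes passed, 1.77% higher and 1.79% lower. That call was lost in 6 of the 8 fits that left out 1 library, with adjusted p from 0.058 to 0.094, and the value stayed between 1.24 and 1.51 in them. Naive and HDM groups of one sex and genotype are shared between these terms and the comparisons above.

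**Figure D5:**
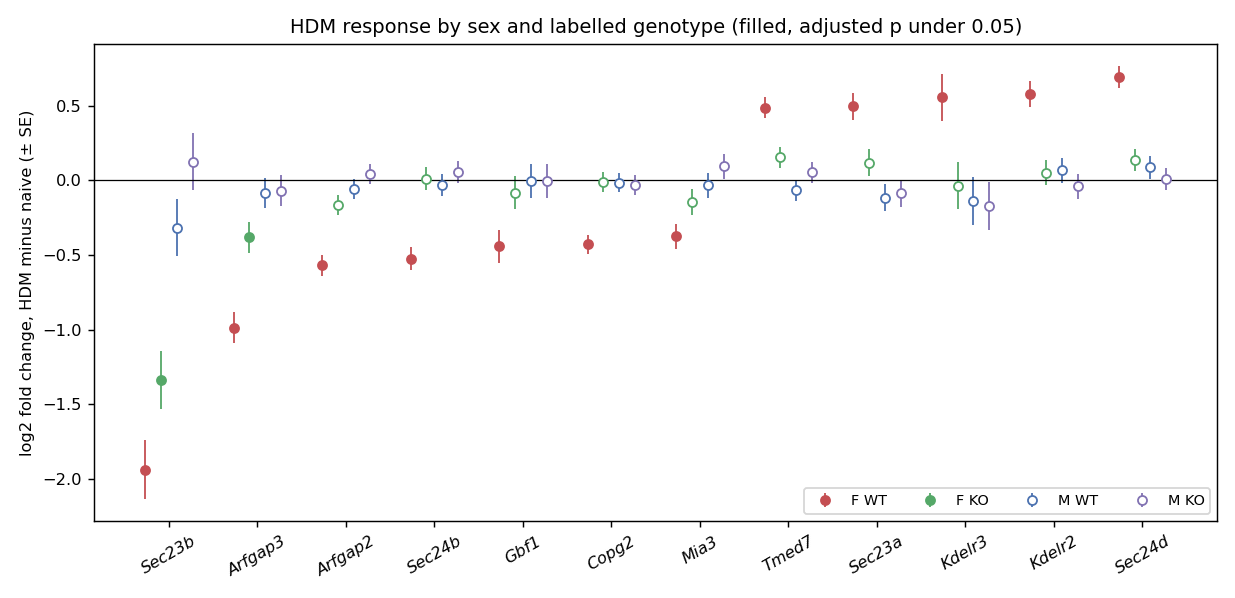
Log2 fold change of HDM against naive cultures (± SE) for 12 members in female WT, female KO-labelled, male WT and male KO-labelled MTECs, with filled points for an adjusted p under 0.05. Female WT points lie farthest from 0 for every gene shown, and Sec23b and Arfgap3 also fall in female KO-labelled MTECs. All 12 were picked among the members called in female WT MTECs, so the place of the female WT points is largely set by this choice.

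Between the sexes under HDM, WT cultures held 19 members that differed (42.2%), 11 higher and 8 lower in males, where 41.6% of all tested genes passed, 21.3% higher and 20.3% lower. Sec23b was 2.65-fold higher in males (1.40 ± 0.20, adjusted p = 0.00018), at 333 and 447 against 155 and 139 CPM. Arfgap3 was higher by 0.93 ± 0.10 (adjusted p = 4.4e-05), Copg2 by 0.47 ± 0.07, Mia3 by 0.44 ± 0.09 and Arfgap2 by 0.44 ± 0.07 on the log2 scale. The largest lower value was that of Kdelr3, at 9.86 and 8.44 CPM in males against 16.9 and 22.6 CPM in females (-1.11 ± 0.16, adjusted p = 0.00023). Sec24d (-0.64 ± 0.07), Sec23a (-0.59 ± 0.09), Kdelr2 (-0.42 ± 0.08) and Sar1a (-0.32 ± 0.08) were lower too, and Sar1a lost its call without the first M WT HDM (adjusted p = 0.062) or second F WT HDM library (0.074). Without the second F WT HDM library fewer members were called, and fewer of all tested genes.

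In KO-labelled MTECs under HDM, 9 members were higher in males and 0 lower (20%), where 25.3% of all tested genes passed, 12.9% higher and 12.4% lower. Sec23b was 3.12-fold higher, at 606 and 639 against 193 and 206 CPM (1.64 ± 0.20, adjusted p = 0.00022). Copz2 was at 15.4 and 17.6 against 7.22 and 8.88 CPM (1.03 ± 0.30, adjusted p = 0.028), Bet1 at 31.9 and 33.8 against 22.9 and 22.5 CPM (0.54 ± 0.14, adjusted p = 0.02), Arfgap3 was higher by 0.52 ± 0.10 and Mia3 by 0.50 ± 0.09. The others were Mia2, Arfgap2, Copz1 and Rab1b. Copz2 and Bet1 were not called when any 1 of the 4 libraries was left out. Each of those fits also called fewer members and fewer of all tested genes. In 5 of 8 groups the replicate with more Copz2 also had more fibroblast marker counts. In naive F WT, F KO-labelled HDM and M KO-labelled HDM it had fewer. An order of 2 replicates can agree by chance, and a part of fibroblasts in the Copz2 values was not tested.

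In naive MTECs edgeR called 0 members between the sexes in WT and 0 in KO-labelled cultures, where 0.1% of all tested genes passed in WT (0.075% higher, 0.025% lower) and 0.188% in KO-labelled cultures (0.119% higher, 0.0688% lower). An unadjusted p under 0.05 was reached by 8 and 2 members, beside 1969 and 1585 of 15993 tested genes. DESeq2 called 1 and 0 members, beside 209 and 218 of the tested genes. Tmed7 was at 131 and 134 CPM in naive M WT against 109 and 108 CPM in naive F WT MTECs (0.28 ± 0.07, adjusted p = 0.19). Kdelr3 was at 10.2 and 9.96 CPM against 12.3 and 14.4 CPM (-0.41 ± 0.16, adjusted p = 0.35).

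The LMAN1 label alone went with no called member in naive MTECs. Lman1 itself was not called there either. The cargo receptor list that holds it had a lowest log2 fold change of -3.264 in naive females and -1.648 in naive males. The 2 naive M KO-labelled libraries also differed in Lman1. A count of 0 therefore does not show that the members stayed unchanged. Between KO-labelled and WT cultures edgeR called 0 members in naive females, 0 in naive males and 0 in HDM-treated males, where 0% of all tested genes passed in each. Unadjusted p under 0.05 was reached by 0, 1 and 4 members, beside 203, 867 and 2897 of 15993 tested genes. DESeq2 called 0, 0 and 1 members, beside 1, 1 and 538 of the tested genes. In naive females, where Lman1 was lowest, the median absolute log2 fold change was 0.03 over the members and 0.077 over all tested genes. Sec23b was there at 558 and 451 CPM in F KO-labelled against 639 and 492 CPM in F WT (-0.16 ± 0.19, adjusted p = 1.0). In HDM-treated males Sec23b was at 606 and 639 CPM in KO-labelled and 333 and 447 CPM in WT MTECs, the largest of the 4 by size (0.68 ± 0.19, adjusted p = 0.17).

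In HDM-treated females 22 members differed between the labels (48.9%), 6 higher and 16 lower in KO-labelled cultures, where 29.2% of all tested genes passed, 14.9% higher and 14.3% lower. With library size as the only scaling, 18 were called, 9 higher and 9 lower, beside 2928 higher and 1819 lower of 15993 tested genes. This comparison shares the F WT HDM libraries with that of HDM against naive F WT cultures, so a gene high or low in them moves in both. Among the genes lower in F KO-labelled HDM, Sec24d was at 50.8 and 52.5 against 72.04 and 82.88 CPM (-0.58 ± 0.08, adjusted p = 0.00036), Sec23a at 38.5 and 37.9 against 50.6 and 54.9 CPM (-0.47 ± 0.09, adjusted p = 0.0038) and Kdelr2 at 84.4 and 74.1 against 101 and 117 CPM (-0.46 ± 0.09, adjusted p = 0.0028). Kdelr3 was lower by 0.57 ± 0.16 and Copz2 by 1.08 ± 0.31 on the log2 scale (adjusted p = 0.019 and 0.022). Higher in F KO-labelled HDM were Arfgap3 (0.53 ± 0.10), Sec24b (0.52 ± 0.08), Arfgap2 (0.45 ± 0.07), Copg2 (0.43 ± 0.07), Gbf1 (0.35 ± 0.11) and Sec24c (0.25 ± 0.06). Sec23b did not pass (0.44 ± 0.19, adjusted p = 0.11). Both F KO-labelled HDM libraries held 66.6 and 78.1 CPM of Lman1. These libraries also had more secretory and basal marker counts than F WT HDM, and their fibroblast sums of 75.0 and 69.5 CPM lay between the 50.3 and 623 CPM of F WT HDM. Of the marker genes 6 of 8 secretory and 4 of 6 basal ones were higher and 3 of 9 fibroblast ones lower, with a fibroblast median log2 fold change of -2.951, and the part of these shifts, for Copz2 also, was not tested. Fewer members, and also fewer of all tested genes, were called without the second F WT HDM or the second F KO-labelled HDM library. The calls of Kdelr3 were lost without either of these, those of Copz2 without either or without the first F KO-labelled HDM library, and that of Gbf1 without any 1 of the 4 libraries, with adjusted p from 0.051 to 0.245 over the 3 genes. Without the second F WT HDM library Arfgap3 had an adjusted p of 0.056.

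The HDM response differed between the labels for 7 members in females, 4 with a higher and 3 with a lower value in KO-labelled cultures, where 11.2% of all tested genes passed, 6.16% higher and 5.08% lower. DESeq2 called 12, 4 higher and 8 lower, beside 2391 of 15993 tested genes, 1228 higher and 1163 lower. Sec24b differed by 0.54 ± 0.11 (adjusted p = 0.011), at 132 and 129 CPM naive and 129 and 134 CPM after HDM in F KO-labelled. Sec24d differed by -0.56 ± 0.11 (adjusted p = 0.0093) and Copg2 by 0.42 ± 0.09 (adjusted p = 0.017). The others were Arfgap2, Arfgap3, Kdelr2 and Tmed3. Sec23b did not pass (0.60 ± 0.27, adjusted p = 0.17). No member was called without the first F WT naive library, 1 without the second F WT HDM or the second F KO-labelled naive library, 2 without the second F KO-labelled HDM library and 13 without the first F WT HDM library. The count over all tested genes moved the same way in each of these fits. In males edgeR called 0 members and 0 of 15993 tested genes. An unadjusted p under 0.05 was reached by 4 members and 1388 tested genes, and DESeq2 called 0 of either.

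Other genes of the route were read from lists that do not hold the members. Of 59 tested genes of other ER and Golgi transport factors, 33 were called under HDM in F WT MTECs, 16 higher and 17 lower (55.9%, beside 43.1% of all tested genes). The 3 with the smallest p were Rab2a, a Golgi GTPase, at 169 and 166 CPM naive and 229 and 262 CPM after HDM (0.56 ± 0.07), Trappc12, a tether subunit, at 57.8 and 56.1 against 42.4 and 38.0 CPM (-0.50 ± 0.07), and Tmed5, at 30.2 and 30.1 against 51.2 and 65.9 CPM (0.96 ± 0.13). Of 12 cargo receptor genes 9 rose and 0 fell, where 20.6% and 22.4% of all tested genes did, with a median log2 fold change of 0.39 against -0.02 over all tested genes. Ergic1, which cycles between ER and Golgi, rose from 160 and 177 to 345 and 359 CPM (1.064 ± 0.10), Surf4 by 0.47 ± 0.08, Cnih1 by 0.51 ± 0.09 and Mcfd2 by 0.36 ± 0.09, while Lman1 had a value of -0.17 ± 0.43. In F KO-labelled MTECs 4 of these 12 were higher, beside 4.63% of all tested genes, 1 of them Lman1 itself (2.5 ± 0.48, adjusted p = 0.0074).

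Of 27 ER stress regulators and chaperones 21 were called in F WT MTECs, 13 higher and 8 lower (77.8%, beside 43.1% of all tested genes). The chaperones and folding factors Hspa5 (0.54 ± 0.11), Manf (1.01 ± 0.11), Hsp90b1 (0.92), Pdia4 (0.69) and Pdia6 (0.73) rose, as did the stress kinase gene Eif2ak3, from 37.1 and 36.8 to 62.5 and 63.9 CPM (0.78 ± 0.08). The regulators Xbp1 (-1.14 ± 0.22), Atf6 (-0.50 ± 0.09) and Atf4 (-0.48 ± 0.07) fell, and so did Herpud1, from 137 and 126 to 62.9 and 55.6 CPM (-1.15 ± 0.09). Ern2, a stress sensor of mucus-secreting epithelia named here after its values were seen, had the lowest fold change of the list but few counts, at 1.89 and 1.89 CPM naive and 0.167 and 0 CPM after HDM (adjusted p = 0.014). In F KO-labelled MTECs 4 of the 27 were called (14.8%, beside 10.4% of all tested genes), 1 higher and 3 lower. The lists were chosen with results of these libraries known, so their counts describe them and are no independent evidence.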

How the data were processed

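RNA of 16 MTEC libraries was prepared with a column kit and enriched for mRNA, then fragmented, primed at random and amplified, per the labels. The authors deposited 1 table of raw counts per Ensembl gene, and 16 of its columns were used. The submitters' processing notes name Trimmomatic version 0.36, STAR version 2.5.2b, featureCounts, Subread version 1.5.2, DESeq2 and build GRCm38. The annotation release and strand setting are not given in the sources used here. Identifiers were matched to GENCODE M21, with 259 unmatched (0.0106% of counts).

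Genes were filtered with filterByExpr, scaled by TMM and fitted in edgeR (version 4.0.16, under R 4.3.3) as 8 group means over all 16 libraries. The common biological coefficient of variation was 0.142. Tests were two-sided, and p-values were adjusted over all 15993 genes in each of 16 comparisons (Benjamini-Hochberg, called under 0.05). CPM per kb divides by summed exon length. Gene bodies of 9 members overlap a tested gene on the opposite strand (Sec24c, Preb, Copa, Copg2, Arfgap2, Kdelr1, Kdelr3, Uso1 and Golga2), so reads of such pairs may not be told apart. Alternatives were DESeq2 version 1.42.0, fits restricted to the compared libraries, a replicate block, leaving out each library, scaling by upper quartile or by library size alone, and a filter dropped or raised to 10 counts per library.

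The members and lists were chosen with earlier results of these data known. Genes with full values were the 5 called members with the largest changes in each direction of each comparison, the 3 with the smallest p in each interaction, the highest member per role by length, Lman1, Mcfd2 and the 3 called genes with the smallest p in each other list. Further members are given for their role. The fit was tested on simulated data.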

Additional observations from a re-analysis of the deposited data

Results flagged for a closer look

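The results below were singled out because an interaction term showed that the HDM response differed between groups. Between KO-labelled and WT MTECs in females, 7 members differed: the difference was 0.54 for Sec24b, -0.56 for Sec24d and 0.42 for Copg2 among the 3 with the smallest p. Between male and female WT MTECs, 13 members differed, led by Sec23b at 1.62, Arfgap3 at 0.91 and Sec24d at -0.61. Between male and female KO-labelled MTECs, 1 member differed, Sec23b, at 1.47. All values are differences of log2 fold changes, KO minus WT or M minus F. The secretory and basal marker sums differed between the same groups, and their part in these values was not tested.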

How the results depend on the processing

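Each setting was changed 1 at a time. The count of called members moved by over 1.5 times, or off 0, in these fits. Between labels in HDM-treated females, fitting only the compared libraries gave 12 calls in place of 22. For the difference of HDM response between labels in females, 7 calls (4 higher, 3 lower) became 11 with no filter on low counts (6 higher, 5 lower) and 12 with DESeq2 (4 higher, 8 lower). Between labels in HDM-treated males, no filter and DESeq2 each gave 1 call in place of 0. Between sexes in naive cultures, DESeq2 gave 1 call in WT and no filter gave 1 in KO-labelled MTECs, in place of 0. The calls over all tested genes moved in the same fits. They were 3596 in place of 4669 in the first, and 3029 and 2391 in place of 1798 for the difference of HDM response. In HDM-treated males they were 1896 and 538 in place of 0. Between naive sexes they were 209 in place of 16 in WT and 859 in place of 30 in KO-labelled MTECs. Leaving out 1 library assumes that the lone library varies like the other groups. It gave 15 to 22 calls for HDM in F WT, 1 to 3 in F KO-labelled, 6 to 21 between labels in HDM-treated females, 12 to 20 between sexes under HDM in WT and 4 to 5 in KO-labelled MTECs. For the differences of HDM response it gave 0 to 13 between labels in females, 9 to 15 between sexes in WT and 0 to 1 in KO-labelled MTECs. The count over all tested genes moved in these fits as well. The cause was not tested, beyond the smaller number of libraries in these fits.

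With library size as the only scaling, the difference of HDM response between sexes in WT again had 13 calls, of which 11 were shared with TMM scaling, but 8 higher and 5 lower in place of 6 and 7. Of 322 values of single genes under the other settings 317 kept direction and call and 5 lost the call: Kdelr3 for HDM in F WT (0.57) and between labels in HDM-treated females (-0.57) and Sar1a between sexes under HDM in WT (-0.32), each with only the compared libraries, and Rab1b for HDM in F KO-labelled with no filter (-0.28) and with the replicate block (-0.27). Of 212 values with 1 library left out 48 lost the call, and 0 values changed direction in any setting.

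The labels give no meaning to shared replicate numbers. Correlations of replicate differences between the compared groups ran from -0.184 to 0.496. For HDM against naive they were 0.307 in F WT and 0.473 in M WT, and whether these groups share cultures is not known. The numbers were not taken as pairs in the main fit, and the replicate block was an alternative. With the replicate block, calls were 23 for HDM in F WT, 3 in F KO-labelled, 20 between labels in HDM-treated females, 21 and 8 between sexes under HDM in WT and KO-labelled MTECs, and 6, 15 and 1 for the 3 differences of HDM response with calls. In the same order, calls over all 15993 tested genes were 6822, 1399, 4317, 6735, 3657, 1571, 4310 and 380. Depth limits Sec31b and Sec16b, whose libraries never exceeded 0.752 CPM.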
